A study of Mus musculus with 6 samples.

Results

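The stomach antrum samples of each mouse strain in this study came as replicate 1 and replicate 2, and the 3 arrays titled replicate 2 were set against the 3 titled replicate 1, each pair within its strain. This takes in all 6 of the 6 arrays, sorted by the number in their titles. The comparison was chosen with results of these arrays known, so the differences are given as a description and support nothing. RNA of the antrum was measured on Affymetrix expression arrays in mice titled C57/BL6 control (here BL6), Beige control and Satin, with 2 arrays per strain. Satin mice carry a mutation in Foxq1, a forkhead transcription factor gene, and Beige mice carry a mutation in Lyst, a gene of lysosome-related organelles. No treatment, age or sex was given for any group, nor a genetic background for Beige or Satin. The design text speaks of 2 mice per strain but does not tie an array to an animal, so the spread between arrays may be partly technical. How the antrum was cut from its neighbours is not stated in the labels.

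The antrum is the outlet of the stomach, lined by mucous and hormone-secreting glands over a thick coat of smooth muscle. It opens into the duodenum, lies beside the head of the pancreas and carries fat along its curvatures, while the liver lies close by. Each of these tissues makes a few abundant transcripts that are its textbook markers. Pancreatic acinar cells make digestive zymogens, adipocytes make adiponectin and carbonic anhydrase 3, goblet cells make gel-forming secretory proteins, and hepatocytes make albumin. In bulk RNA fewer cells of a type and less RNA per cell cannot be told apart.

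Levels are on the scale log2(signal + 32) after quantile normalization, where 5 is the floor and the highest level of any gene was 13.29, so a difference of 1 is a 2-fold change of signal plus 32. A difference is replicate 2 minus replicate 1. Near the floor this scale understates change, and levels near 13 lie at the top of the range. Of 12393 genes with a probe set of their own, 9395 passed a filter on the lowest levels, and the 27 gene lists described here held 654 members, of which 568 were measured and 459 passed. The antral mucous genes Gkn1, Gkn2, Tff1 and Tff2 lay between 12.82 and 13.29 on all 6 arrays, and the hormone gene Gast between 10.18 and 12.21. Muc5ac, a gel-forming mucin of surface cells, separated the strains and not the replicate numbers, at 8.56 and 8.58 on the Satin arrays and 12.65 to 13.11 on the other 4. The ratio of 5′ to 3′ signal of the Gapdh control, which falls as RNA is degraded, was 0.526 on BL6 array 1 and 0.988 to 1.18 on the other 5, and that of beta-actin was 0.440 against 0.618 or more. BL6 array 1 therefore stood apart in these ratios, and the acinar, adipocyte and smooth muscle lists are also given without the BL6 pair.

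Of the 27 gene lists, the pancreatic acinar list had the largest median difference between the replicate numbers in BL6 and in Satin. In Beige its median was also the largest in size after quantile normalization, at 0.72 against -0.61 for T cell genes, but after median centring, relative to all genes, the T cell genes were larger, at -0.76 against 0.59. Cpa1, which encodes the zymogen of carboxypeptidase A1, had a deposited signal of 3.1 on BL6 array 1 and 9397.7 on BL6 array 2. Its signals were 2.1 and 1049.7 on Beige arrays 1 and 2, and 11.5 and 5159.0 on Satin arrays 1 and 2. All 3 replicate 1 arrays lay near the floor and all 3 replicate 2 arrays lay far above them, with BL6 array 2 highest and Beige array 2 lowest of the 3. The same order held for Ctrb1, a chymotrypsinogen, with signals of 1.9 and 9668.1 in the BL6 pair, 39.5 and 1277.4 in the Beige pair and 2.1 and 6717.7 in the Satin pair. Cpb1, the zymogen of carboxypeptidase B1, followed with 17.9 and 8323.5, 35.0 and 1288.9, and 4.2 and 4741.4. No replicate 1 signal of these 3 genes exceeded 39.5, and the groups did not overlap.

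The promoters of 4 of these zymogen genes are printed here because the genes went up and down together over the arrays, each from 250 bases before to 50 bases after the transcript start, 5′ to 3′ along the gene, taken from RefSeq on GRCm38.p6. The positions are Cpa1, chr6:30638968-30639267 (plus strand), Ctrb1, chr8:111690961-111691260 (minus strand), Cela2a, chr4:141825956-141826255 (minus strand) and Prss2, chr6:41521526-41521825 (plus strand). Capitals mark the letters TTTCCC (a TC-box) or CACCTG (an E-box) on either strand, so that GGGAAA and CAGGTG are also in capitals. Acinar zymogen genes are known targets of PTF1, a transcription factor complex of acinar cells that binds an E-box next to a TC-box.
Cpa1: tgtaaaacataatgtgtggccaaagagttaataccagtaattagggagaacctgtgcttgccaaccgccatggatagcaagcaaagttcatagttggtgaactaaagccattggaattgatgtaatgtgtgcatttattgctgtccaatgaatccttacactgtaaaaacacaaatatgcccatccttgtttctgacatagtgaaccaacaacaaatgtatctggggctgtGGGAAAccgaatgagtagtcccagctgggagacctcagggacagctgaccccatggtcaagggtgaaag
Ctrb1: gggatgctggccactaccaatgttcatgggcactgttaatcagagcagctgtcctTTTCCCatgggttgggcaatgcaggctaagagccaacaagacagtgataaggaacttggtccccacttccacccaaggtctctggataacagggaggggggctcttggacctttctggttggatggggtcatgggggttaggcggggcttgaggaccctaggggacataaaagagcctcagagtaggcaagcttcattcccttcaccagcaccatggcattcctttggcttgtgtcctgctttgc
Cela2a: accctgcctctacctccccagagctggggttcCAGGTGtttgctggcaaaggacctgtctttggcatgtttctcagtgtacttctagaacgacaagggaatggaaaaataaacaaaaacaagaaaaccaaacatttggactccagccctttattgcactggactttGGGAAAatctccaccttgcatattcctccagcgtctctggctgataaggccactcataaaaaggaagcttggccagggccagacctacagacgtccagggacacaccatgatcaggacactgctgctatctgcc
Prss2: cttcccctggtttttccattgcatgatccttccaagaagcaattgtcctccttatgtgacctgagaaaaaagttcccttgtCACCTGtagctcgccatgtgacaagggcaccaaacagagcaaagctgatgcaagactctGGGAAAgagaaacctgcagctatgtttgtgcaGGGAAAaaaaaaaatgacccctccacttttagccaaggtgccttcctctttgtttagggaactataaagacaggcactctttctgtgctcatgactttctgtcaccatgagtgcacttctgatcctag
Of the 34 acinar genes past the filter, 28 had a promoter in the table. The E-box letters stood in 16 of these 28 (57.1%), against 22.6% of all 27025 genes with a promoter of that length. A gene was counted if any of its promoters matched. The TC-box letters stood in 9 (32.1%) against 27.9%, and both motifs in 5 (17.9%) against 5.65%, these 5 being Cel, Cela1, Cela2a, Prss2 and Reg3d. Both motifs were counted anywhere in the promoter and need not stand next to each other. The E-box letters began at -218 in Cela2a and the TC-box letters at -84. In Prss2 the E-box letters began at -169 and the TC-box letters at -110 and -78. The printed Cpa1 and Ctrb1 promoters held TC-box letters only. The motifs do not overlap each other, and a match is a description of the letters only. A differing amount of acinar tissue and shared control of these genes cannot be told apart in these arrays.

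Over all genes, replicate 2 was more than 2-fold higher in 378 genes of the BL6 pair (4.02%), 299 of the Beige pair (3.18%) and 180 of the Satin pair (1.92%). It was more than 2-fold lower in 205 (2.18%), 151 (1.61%) and 72 (0.766%). The split between higher and lower moved with the scaling: in the BL6 pair it was 394 higher and 92 lower after median centring, 247 and 214 on the deposited scale, and 135 and 480 after scaling to the hybridization controls. In the Beige pair the hybridization controls gave 249 and 195. In the Satin pair the deposited scale gave 169 and 240, and the hybridization controls 194 and 202.

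Of the 45 genes on the pancreatic acinar list 36 were measured and 34 passed the filter, which the genes of this list could pass through replicate 2 alone. In the BL6 pair 30 of the 34 were more than 2-fold higher in replicate 2 and 0 were lower. In the Beige pair 14 were higher and 0 lower, and in the Satin pair 22 were higher and 1, Tmed6, was lower. The median difference of the 34 was 4.57 in BL6, 0.72 in Beige and 2.64 in Satin, where the median of all genes was -0.03, 0.00 and -0.01. The list's median level was 6.10, 6.58 and 6.15 on the replicate 1 arrays of BL6, Beige and Satin, and 12.40, 8.75 and 11.10 on the replicate 2 arrays. The replicate 1 arrays were thus close to each other in this list and the replicate 2 arrays were not. Relative to all genes and averaged over the pairs, the median difference was 2.65, and 1.68 without the BL6 pair.

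**Figure D1:**
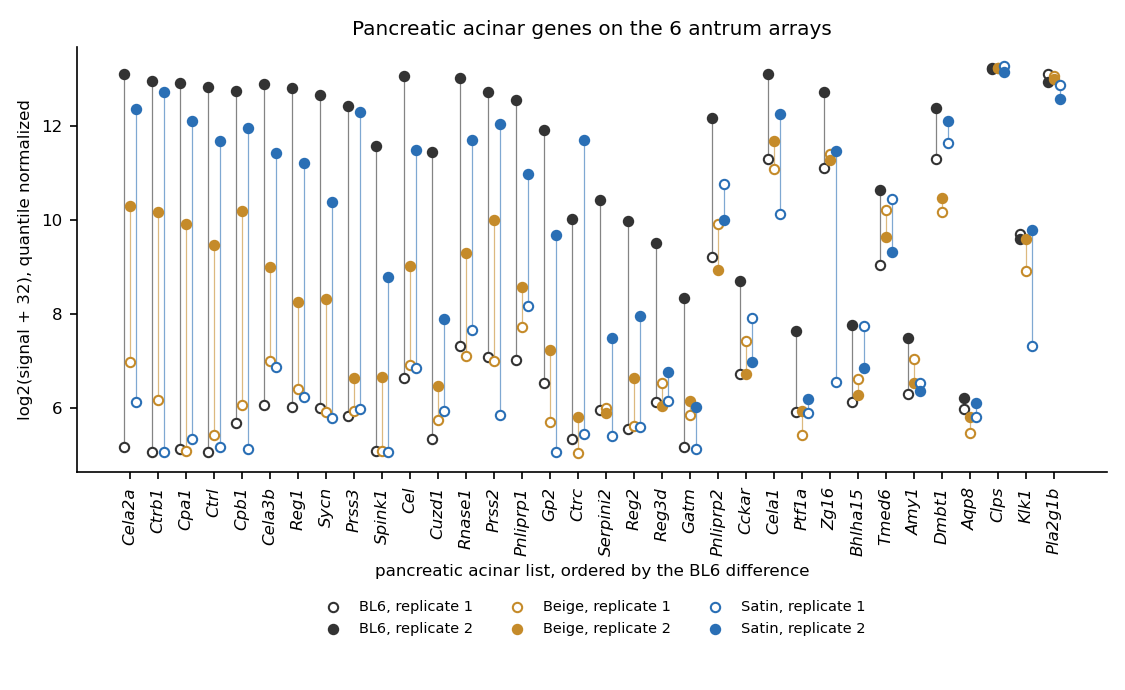
Levels of the 34 pancreatic acinar genes past the filter on each of the 6 antrum arrays, on the scale log2(signal + 32) after quantile normalization, with replicate 1 as open and replicate 2 as filled circles joined within a strain and genes ordered by the BL6 difference. For the genes on the left, filled circles lie above open ones in every strain, with BL6 replicate 2 (Cpa1 at 12.92) mostly above Satin (12.11) and Beige (9.92), while Clps and Pla2g1b on the right stay above 12 on all arrays.

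The genes past 2-fold in all 3 pairs, in the direction of replicate 2, numbered 17 of 9395 (0.181%), and 14 of them were on the acinar list. The other 3 were 2210010C04Rik, a gene of the trypsin family that the list did not hold, Cp, which encodes ceruloplasmin, and Angptl4, a secreted inhibitor of lipoprotein lipase. In the opposite direction there was 1 gene, Crybb2 (0.0106%). All 3 replicate 2 arrays lay above all 3 replicate 1 arrays in 401 genes (4.27%), including 21 of the 34 acinar genes, and below them in 468 (4.98%), including 0 acinar genes. The direction was higher in all 3 pairs in 1118 genes (11.9%), 23 of them acinar, and lower in 1310 (13.9%), 1 of them acinar.

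In the paired limma fit, 8 of 9395 genes (0.0852%) passed an adjusted p of 0.05, all 8 higher in replicate 2, and 0 genes (0%) passed as lower. Without adjustment 445 of the 9395 genes had a p under 0.05 in this fit, close to the share that this cutoff would give if no gene differed. The 8 were Cpa1, 2210010C04Rik, Cpb1, Ctrl, Ctrb1, Prss2, Cela2a and Rnase1, of which all but 2210010C04Rik are on the acinar list. Their mean differences over the 3 pairs ran from 3.98 ± 1.76 (SD, n = 3 pairs) for Rnase1, the pancreatic ribonuclease, to 6.51 ± 2.18 for Ctrb1. Cpa1 had 6.46 ± 1.49 and 2210010C04Rik 5.94 ± 1.55. With 3 pairs the smallest two-sided p of an exact sign-flip test is 0.25, and the contrast had been chosen on these arrays, so the count is a description. The number of calls depended on how limma estimated the spread: it was 0 of 9395 without the intensity trend (512 genes with an unadjusted p under 0.05) and 0 with robust estimation (443).

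Among the endopeptidases, Cela2a, an elastase zymogen, was at 5.17 and 13.10 on BL6 arrays 1 and 2, 6.99 and 10.30 on the Beige pair and 6.13 and 12.35 on the Satin pair. Ctrl, a chymotrypsin-like protease gene, was at 5.08 and 12.83, 5.44 and 9.46, and 5.17 and 11.67. Prss2, a trypsinogen, had deposited signals of 88.1 and 8246.7, 84.1 and 1111.1, and 37.7 and 5011.5. In each of these the 3 replicate 2 arrays lay above every replicate 1 array by more than 2 on the log2 scale. A trypsinogen and a chymotrypsinogen differed by less than 2-fold in the Beige pair. Prss3 was at 5.84 and 12.42 in BL6 and 5.97 and 12.30 in Satin, but only at 5.95 and 6.64 in Beige. Ctrc, chymotrypsin C, was at 5.35 and 10.02 in the BL6 pair, 5.05 and 5.82 in the Beige pair and 5.46 and 11.69 in the Satin pair. Ctrc was the 1 gene among the 22 acinar genes more than 4-fold higher in BL6 array 2 whose level on Satin array 2 exceeded that on BL6 array 2. Trypsinogens are close copies of each other, so the split of signal between Prss2, Prss3 and 2210010C04Rik is uncertain. Cela1, an elastase zymogen also present in every replicate 1 sample, rose from 11.31 to 13.11 in BL6, from 11.08 to 11.68 in Beige and from 10.12 to 12.26 in Satin.

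The lipid-digesting enzymes of the list were less uniform. Cel, bile salt-activated lipase, was at 6.65 and 13.06 in the BL6 pair, 6.93 and 9.03 in the Beige pair and 6.86 and 11.50 in the Satin pair. Pnliprp1, a pancreatic lipase-related protein gene, was at 7.03 and 12.55, 7.72 and 8.58, and 8.17 and 10.97. Its relative Pnliprp2 was at 9.22 and 12.17 in BL6 but at 9.91 and 8.93 in Beige and 10.77 and 10.01 in Satin, so that replicate 2 was the higher array in BL6 and the lower in both other strains. Clps, the colipase gene, stood between 13.15 and 13.27 on all 6 arrays, and Pla2g1b, a secreted phospholipase A2 gene, between 12.56 and 13.10. Both lay at the top of the range on all 6 arrays, where differences are hard to see. A further probe set of Pla2g1b past the filter was at 11.50 and 12.79, 12.98 and 12.17, and 13.11 and 12.30, differences of 1.28, -0.81 and -0.80.

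Among the inhibitors, granule proteins and regenerating-family proteins of the acinar cell, Spink1, Sycn, Gp2, Reg1 and Cuzd1 differed most in BL6 and least in Beige. The granule lectin Zg16 differed by 1.63, -0.13 and 4.91 in BL6, Beige and Satin. Spink1, the trypsin inhibitor secreted with the zymogens, was at 5.09 and 11.56 in the BL6 pair, 5.10 and 6.67 in the Beige pair and 5.08 and 8.80 in the Satin pair. Sycn, a zymogen granule protein, was at 6.01 and 12.66, 5.92 and 8.32, and 5.80 and 10.37. Gp2, the main membrane glycoprotein of the granules, was at 6.53 and 11.91, 5.71 and 7.24, and 5.07 and 9.69. Each had its lowest levels on the replicate 1 arrays. Reg1, a secreted lectin-like protein of acinar cells, was at 6.03 and 12.81 in the BL6 pair, 6.41 and 8.25 in the Beige pair and 6.25 and 11.22 in the Satin pair. Cuzd1, a zymogen granule membrane protein gene, was at 5.34 and 11.46, 5.74 and 6.48, and 5.94 and 7.89. Serpini2, a pancreatic serine protease inhibitor gene, was at 5.97 and 10.44, 6.01 and 5.91, and 5.41 and 7.49. Reg3d was at 6.13 and 9.51 in BL6 and differed by -0.49 in Beige and 0.62 in Satin. For Serpini2 and Reg3d the Beige pair showed no excess in replicate 2.

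Transcription factor and receptor genes of the acinar list differed less. Ptf1a, the acinar transcription factor of the PTF1 complex, was at 5.92 and 7.65 in the BL6 pair, 5.43 and 5.94 in the Beige pair and 5.90 and 6.19 in the Satin pair. Bhlha15, a secretory-cell transcription factor that gastric chief cells also make, was at 6.14 and 7.77 in BL6 and differed by -0.32 in Beige and -0.89 in Satin. The cholecystokinin receptor gene Cckar had differences of 1.98, -0.70 and -0.94, and Tmed6, a cargo protein of the secretory pathway, 1.60, -0.58 and -1.13. Rbpjl and Nr5a2, further acinar transcription factor genes, did not pass the filter, with levels from 5.14 to 6.68. In Bhlha15, Cckar and Tmed6 the Beige and Satin pairs did not share the direction of BL6.

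On the linear signal scale after quantile normalization, the excess of replicate 2 over replicate 1 in each strain can be set against that of BL6 gene by gene, which keeps the comparison within a probe set. Over the 22 acinar genes more than 4-fold higher in BL6 array 2, the median excess was 4.39% of the BL6 excess in Beige (range -11.9% to 16.2%) and 32.7% in Satin (range -17.9% to 326%). BL6 had the largest and Beige the smallest log2 difference in 20 of these 22 genes. The 22 genes were chosen by their BL6 difference, which favours BL6 as the largest and lowers the shares of the other strains. The place of BL6 in this order is therefore partly set by the choice. The Beige excess was 12.2% of the BL6 excess for Cpa1, 16.2% for Cpb1, 13.6% for Ctrb1 and Prss2 and 13.0% for Cela2a, and the Satin excess was 58.3% for Cpb1, 58.8% for Cela2a, 63.0% for Prss2 and 85.4% for Ctrb1. For Spink1 it was 2.26% in Beige and 13.7% in Satin, for Cuzd1 1.30% and 6.35%, and for Gp2 2.63% and 21.2%. Highest was Ctrc in Satin, at 326%, with 2.35% in Beige. From the deposited signals the medians were 4.19% in Beige and 32.3% in Satin, and the Satin shares were 69.5% for Ctrb1 and 471% for Ctrc. These shares have no replicate behind them. On BL6 array 2, Ctrb1, Cela2a and Prss2 were at 12.96, 13.10 and 12.72, near the top of the range, where differences are hard to see. Spink1 and Cuzd1 were at 11.56 and 11.46 on that array. The part of these levels in the shares was not tested.

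**Figure D2:**
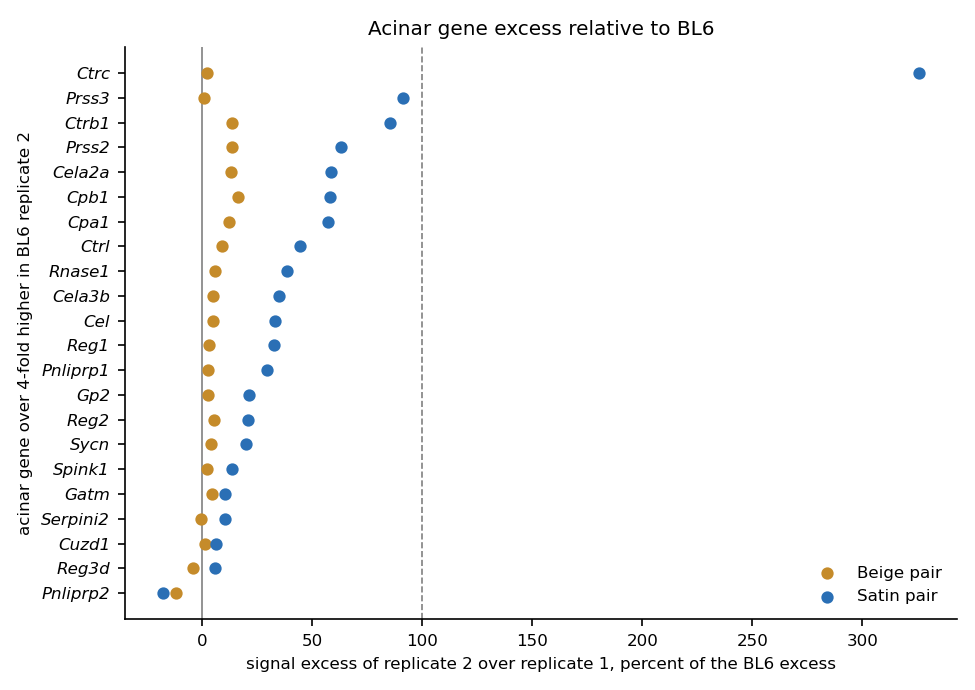
Signal excess of replicate 2 over replicate 1, after quantile normalization, in the Beige and Satin pairs as a percentage of the excess in the BL6 pair, for the 22 acinar genes more than 4-fold higher in BL6 replicate 2, ordered by the Satin value, with lines at 0 and 100%. Beige points lie between -11.9% and 16.2% and most Satin points between 0 and 100%, with Ctrc at 326% and Pnliprp2 below 0 in both strains.

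Where a gene had more than 1 probe set past the filter, the probe sets could be set beside each other. This applied to 8 acinar genes with 22 probe sets, of which 18 were more than 2-fold higher in replicate 2 in BL6, 11 in Beige and 16 in Satin. In 19 of the 24 combinations of gene and pair, all probe sets of the gene had the same sign.

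Among islet genes, Ins2 and Iapp were high in 1 sample. Ins2, an insulin gene, had deposited signals of 25.4 and 953.7 on BL6 arrays 1 and 2, 31.9 and 10.3 on the Beige pair and 45.0 and 19.6 on the Satin pair. Iapp, which encodes the peptide co-secreted with insulin, was at 5.03 and 9.18 in the BL6 pair, 6.21 and 6.17 in the Beige pair and 5.64 and 5.69 in the Satin pair. Both genes were high on BL6 array 2 alone and near the floor on the other 5 arrays, Satin array 2 with its high zymogen levels included. Of the 18 genes on the islet list 14 were measured and 10 passed the filter; the median difference of those was 0.19, -0.11 and 0.00 in BL6, Beige and Satin, and 6, 3 and 5 of the 10 were higher in replicate 2. Chgb and Pcsk1, a granule protein gene and a prohormone convertase gene of endocrine cells in general, differed by -1.11 and -0.46 in BL6. Sst, the somatostatin gene that antral D cells also express, was at 8.66 and 9.70, 9.90 and 9.45, and 9.39 and 8.26, with no common direction. Ppy, Nkx6-1, Slc2a2 and G6pc2 did not pass the filter.

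Several fat genes differed through low levels on BL6 array 1 and, in some genes, Satin array 1. Car3, carbonic anhydrase 3, was at 6.14 and 10.54 on BL6 arrays 1 and 2, 10.25 and 10.29 on the Beige pair and 9.67 and 10.68 on the Satin pair. Adipoq, which encodes the adipocyte hormone adiponectin, was at 5.05 and 8.48, 8.69 and 8.70, and 7.12 and 8.67. Thrsp, a regulator of lipogenesis, was at 5.05 and 7.95, 8.0 and 8.13, and 8.13 and 8.45. For all 3, by these probe sets, the Beige arrays were level with each other and with the high arrays of the other strains. BL6 array 1 was the only array near the floor. A further probe set of Thrsp past the filter did not show this, at 6.54 to 6.85 on all 6 arrays, with a BL6 difference of 0.05. Fabp4, the fatty acid carrier of adipocytes, was at 8.39 and 10.18, 9.91 and 9.79, and 9.42 and 10.03. Cidec, a lipid droplet protein gene, was at 5.62 on BL6 array 1 and 6.73 to 7.05 on the other 5. Lipe, hormone-sensitive lipase, was lowest on Satin array 1, at 5.20, with a Satin difference of 1.42. Lpin1, a phosphatidate phosphatase gene, was also lowest there, at 5.43, with differences of 1.29, -0.07 and 1.28 in BL6, Beige and Satin. A further probe set of Lpin1 past the filter was lowest on BL6 array 1, at 5.96, and at 6.22 on Satin array 1. Its differences were 0.90, 0.53 and 0.17. The hormone gene Retn differed by 0.83, 0.36 and 1.12.

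Of the 41 adipocyte genes 37 were measured and 32 passed the filter, and 7 of these were more than 2-fold higher in replicate 2 in BL6, 1 in Beige and 9 in Satin, with 0 more than 2-fold lower in any pair. Higher by any amount were 24 of the 32 in BL6, 17 in Beige and 24 in Satin, where 4455, 4731 and 4502 of all 9395 genes were. Among the lower ones in Satin were Lpl, the lipoprotein lipase gene, and Cd36, with differences of -0.82 and -0.60. The median difference of the 32 was 0.47 in BL6, 0.02 in Beige and 0.33 in Satin, and after median centring, relative to all genes, it was 0.42 in BL6 and 0.37 in Satin. Among the lipogenic genes of the list, the desaturase gene Scd1 differed by 1.27, -0.74 and 0.75, Fasn, fatty acid synthase, by 0.19, -0.07 and 0.20, and Acly, ATP citrate lyase, by -0.24, -0.31 and -0.05. The Gapdh 5′ to 3′ ratio of 0.526 belongs to the same array that was low in Car3, Adipoq and Thrsp, and its part in the result was not tested. Without the BL6 pair the median difference of the list, relative to all genes and averaged over the pairs, was 0.18, against 0.29 with it.

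**Figure D3:**
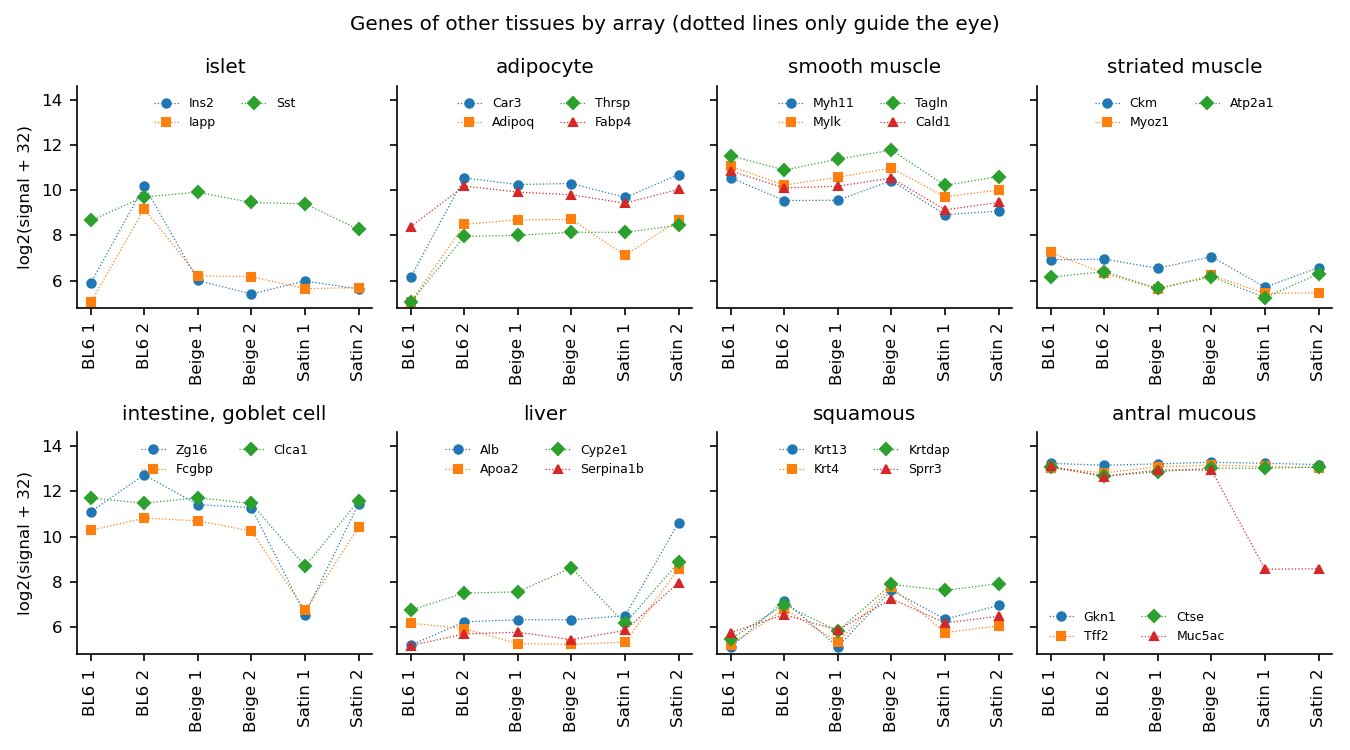
Levels of 29 genes of other tissues and of antral mucous cells on the 6 arrays, on the scale log2(signal + 32) after quantile normalization, 1 panel per tissue and 1 point per array. Ins2 and Iapp are high on BL6 array 2 alone, Car3, Adipoq and Thrsp are low on BL6 array 1, Zg16, Fcgbp and Clca1 are low on Satin array 1, Alb is high on Satin array 2 (10.61), and Gkn1 is level throughout while Muc5ac is low on both Satin arrays.

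Most genes of smooth muscle, the main tissue of the antral wall, went opposite ways in BL6 and Beige. Myh11, smooth muscle myosin heavy chain, was at 10.54 and 9.54 on BL6 arrays 1 and 2, 9.55 and 10.42 on the Beige pair and 8.91 and 9.07 on the Satin pair. Cald1, caldesmon, an actin-binding regulator of contraction, was at 10.85 and 10.10, 10.17 and 10.53, and 9.13 and 9.45. Tagln, an actin-binding protein of smooth muscle, was at 11.52 and 10.88, 11.37 and 11.77, and 10.21 and 10.60. In all 3 genes replicate 1 was the higher array in BL6, replicate 2 the higher in Beige and Satin, and both Satin arrays lay low. Mylk, myosin light chain kinase, and the tropomyosin gene Tpm1 differed by -0.84 and -0.57 in BL6 and by 0.41 and 0.12 in Beige. Further probe sets of Tpm1 past the filter differed by 0.27 in BL6 and -0.12 in Beige, and by -1.20 and 0.80. Not every gene of the list went this way. Kcnma1 differed by 0.85 in BL6 and -1.58 in Beige, Hspb8 by 0.39 and 1.06, and Tpm2 by -0.18 and -0.20. Of the 30 smooth muscle genes 25 were measured and 24 passed the filter, of which 4 were higher in replicate 2 in BL6, 18 in Beige and 16 in Satin. Of all 9395 genes, 4455, 4731 and 4502 were.

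The median difference of the smooth muscle genes was -0.51 in BL6, 0.21 in Beige and 0.14 in Satin. After median centring, relative to all genes, these values were -0.35, 0.31 and 0.19. Past 2-fold were 0 genes higher and 1 lower in BL6 and 2 higher and 1 lower in Beige. Fibroblast and matrix genes, 31 of 32 past the filter, had medians of -0.42, 0.23 and -0.03, the same signs as smooth muscle in BL6 and Beige. BL6 array 1, which was high in smooth muscle, was the array low in the Gapdh ratio, and the part of that ratio in the result was not tested. Averaged over the pairs and relative to all genes, the median difference of the list was -0.04, and without the BL6 pair it was 0.18, with 19 of 24 genes higher in replicate 2 against 10 of 24 with it.

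Striated muscle genes were mostly at the floor. Of 46 genes on the list 41 were measured and only 14 passed the filter, and Myh1, Myh2, Myh4, Acta1, Mylpf and Tnnc2, which encode the main contractile proteins of fast skeletal muscle, lay between 5.03 and 6.27 on all 6 arrays. Ckm, muscle creatine kinase, was at 6.92 and 6.95 in the BL6 pair, 6.54 and 7.06 in the Beige pair and 5.71 and 6.57 in the Satin pair. Myoz1, a Z-disc protein gene, was at 7.25 and 6.31, 5.62 and 6.23, and 5.43 and 5.46. Casq1, the calcium store protein of skeletal muscle, was lowest on BL6 array 1 at 5.47 and lay between 6.26 and 6.81 on the others. No array held these genes high together. The median difference of the 14 was -0.04, 0.14 and 0.21, and the value in Beige turned to -0.07 relative to all genes after median centring.

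Among intestinal genes, 3 genes of goblet cells stood apart on 1 array. Zg16, a lectin of secretory granules that is on both the acinar and the intestinal list, was at 11.10 and 12.73 on BL6 arrays 1 and 2, 11.41 and 11.28 on the Beige pair and 6.55 and 11.46 on the Satin pair. Fcgbp, a mucus protein gene, was at 10.28 and 10.82, 10.70 and 10.24, and 6.74 and 10.42. Clca1, a secreted protein of goblet cell mucus, was at 11.70 and 11.48, 11.71 and 11.47, and 8.69 and 11.58. The 3 genes were low on Satin array 1 only, and Satin array 2 lay among or near the BL6 and Beige arrays, apart from Zg16 on BL6 array 2, which was higher still. Fabp2, an enterocyte fatty acid carrier gene, instead separated the strains, at 6.28 and 6.66 in Satin and 10.70 to 11.33 on the other 4 arrays. Tff3, a further goblet cell gene of the list, was at 6.90 and 6.74 in the BL6 pair, 6.69 and 7.12 in the Beige pair and 6.20 and 7.52 in the Satin pair. Its level on Satin array 1 was the lowest but close to those of other arrays.

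The homeobox genes Cdx1 and Cdx2, which define intestinal epithelium, lay between 5.04 and 5.44 on all 6 arrays. Of the 58 intestinal genes 49 were measured and 35 passed the filter. More than 2-fold higher in replicate 2 were 4 in BL6, 1 in Beige and 9 in Satin, with 0, 0 and 1 lower. The median difference was -0.12, -0.03 and 0.39, and after median centring, relative to all genes, the Satin value was 0.39 and the BL6 value turned from -0.09 to 0.04. Besides the goblet cell genes, the Satin differences included Cyp3a11, a drug-metabolizing cytochrome P450 gene of liver and intestine (3.32), Fabp1, a fatty acid carrier gene of the same organs (1.96), and Pigr, the receptor that carries immunoglobulin A across epithelia (1.49). Apoa4, an enterocyte apolipoprotein gene, differed by 1.69 in BL6, -0.64 in Beige and -1.04 in Satin.

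Liver genes were high on Satin array 2. Alb, the albumin gene, had deposited signals of 4.2 and 30.9 on BL6 arrays 1 and 2, 46.1 and 44.8 on the Beige pair and 82.6 and 1872.6 on the Satin pair. Apoa2, an apolipoprotein gene of the liver, was at 6.17 and 5.93, 5.27 and 5.24, and 5.34 and 8.57. Hpx, the heme-binding plasma protein gene, was at 6.46 and 7.34, 5.83 and 6.17, and 5.06 and 7.33. Alb and Apoa2 set Satin array 2 apart from all 5 others, while for Hpx BL6 array 2 was as high. Cyp2e1, a cytochrome P450 gene also present in fat, was at 6.75 and 7.5, 7.56 and 8.62, and 6.16 and 8.86. Of the 24 liver genes 18 were measured and 11 passed the filter. Apoa2 and Serpina1b passed it only through Satin array 2, so the Satin values of the list are partly set by the filter. Of the 11 genes, 8 were more than 2-fold higher in replicate 2 in Satin, 1 in BL6 and 2 in Beige. In BL6, 1 of them (Apoh, a plasma apolipoprotein gene) was more than 2-fold lower. The median difference of the 11 genes was 1.97 in Satin, 0.23 in BL6 and 0.33 in Beige, and after median centring, relative to all genes, the Satin value was 2.30. The fibrinogen genes Fga, Fgb and Fgg did not pass the filter and were highest on Satin array 2, at 7.18, 6.66 and 6.84.

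Squamous epithelium lines the forestomach and oesophagus, and a few of its keratin genes were higher in replicate 2 in BL6 and Beige. Krt13 was at 5.11 and 7.16 in the BL6 pair, 5.13 and 7.63 in the Beige pair and 6.35 and 6.96 in the Satin pair. Krt4, its partner keratin, was at 5.21 and 6.79, 5.35 and 7.77, and 5.75 and 6.06, and Krtdap, a keratinocyte differentiation gene, at 5.48 and 6.98, 5.83 and 7.88, and 7.62 and 7.92. BL6 array 1 and Beige array 1 were the low arrays in all 3 genes. Of 22 squamous genes past the filter (35 measured, 40 listed), 3 were more than 2-fold higher in BL6, 6 in Beige and 1 in Satin, with medians of 0.14, 0.28 and 0.12. Krt5 differed by 0.36, 1.33 and -0.36, while Krt14 and Trp63, further genes of the basal layer, did not pass the filter and lay between 5.06 and 6.19.

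Among the genes of the stomach's own epithelium, the 15 surface mucous genes past the filter had median differences of 0.00, -0.05 and -0.13 in BL6, Beige and Satin, with 0 past 2-fold in any pair. Relative to all genes, the BL6 value was 0.33 after median centring and 0.02 after quantile normalization. Parietal cell genes had medians of 0.61, -0.20 and -0.69, larger in size in BL6 and Satin than those of the other epithelial lists of the stomach. Atp4a, a proton pump subunit gene, was at 11.11 and 12.03, 12.14 and 11.59, and 12.70 and 11.94. Chief cell genes had medians of -0.02, -0.22 and -0.34 over 6 genes. Relative to all genes the BL6 value of the chief cell genes was 0.53 after median centring and 0.01 after quantile normalization. Parietal genes of BL6 and Satin thus differed in opposite directions between the samples of the strain.

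**Figure D4:**
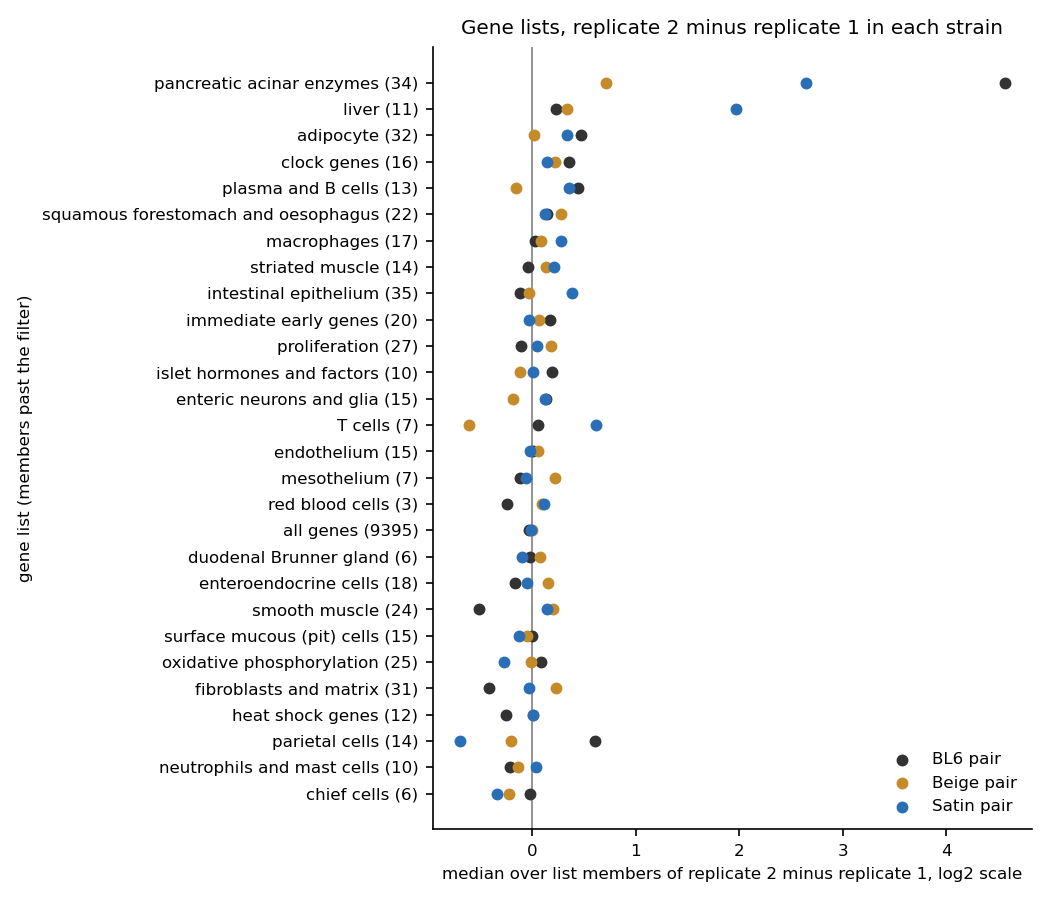
Median over list members of the difference replicate 2 minus replicate 1 on the log2 scale, 1 point per strain pair, for the 27 gene lists and all 9395 genes, with the number of members past the filter in parentheses. The pancreatic acinar list lies at 4.57, 0.72 and 2.64 in BL6, Beige and Satin and the liver list at 1.97 in Satin, while the other lists lie within 0.7 of 0.

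Genes that a single array set apart by more than 4-fold from all 5 others were counted as well. A gene high on 1 array could pass the filter through that array alone. BL6 array 2 had 12 such genes above the others, 8 of them acinar and 2 islet. Satin array 2 had 6 above, of which Alb, Apoa2 and Serpina1b are liver genes and Cyp3a11 is on the intestinal list; Serpina1c, another alpha-1 antitrypsin gene and a close copy of Serpina1b, and 2310057J18Rik were the others. BL6 array 1 had 4 below, which were Car3, Thrsp, Adipoq and Gpaa1, a gene of the enzyme that attaches GPI anchors. For Thrsp this held for the probe set used but not for its further probe set past the filter. Satin array 1 had 3 below, Zg16, Fcgbp and Clca1, and 1 above, Bpifb1, a secreted protein gene of mucous glands, at 11.71 on Satin array 1, 9.64 on Satin array 2 and 6.0 to 6.86 elsewhere. The Beige arrays had 0 in either direction.

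Across genes, the differences of the 3 pairs correlated less with each other when the acinar genes were left out. Over all 9395 genes Pearson's r was 0.118 for BL6 with Beige, 0.272 for BL6 with Satin and 0.189 for Beige with Satin. Without the 34 acinar genes the values were 0.0208, 0.0520 and 0.0903, and over the 2577 genes with a mean level above 8 they were 0.366, 0.607 and 0.556, or -0.0839, 0.0965 and 0.218 without the acinar genes. Genes are not independent replicates, and each correlation shares 2 arrays with each of the others. By levels instead of differences, BL6 array 2 correlated with Beige array 2 at 0.954 and with BL6 array 1 at 0.907. Without the acinar genes those values were 0.963 and 0.928, so in both cases BL6 array 2 was closer to the other strain's array than to its own strain's. The array it was less like is the one with the low Gapdh ratio, and the part of that ratio in the result was not tested. Satin array 2 correlated with Satin array 1 at 0.944 and with Beige array 2 at 0.948 over all genes, and at 0.959 and 0.952 without the acinar genes.

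**Figure D5:**
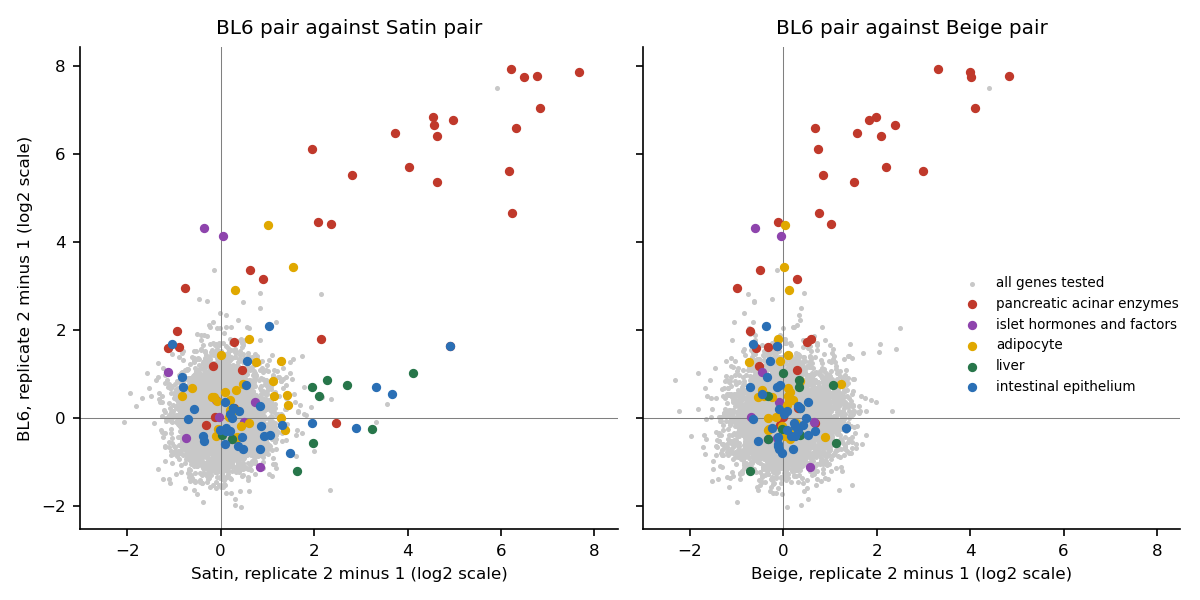
Difference replicate 2 minus replicate 1 of each gene in the BL6 pair (vertical axis) against the Satin pair (left) and the Beige pair (right), on the log2 scale, for 9395 genes in grey and members of 5 tissue lists in colour. Acinar genes reach 7.93 in BL6 and 7.66 in Satin, 2 islet genes (Ins2 and Iapp) are high in BL6, and the largest liver differences are in Satin (Alb at 4.11).

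The spread within strains can be set against that between strains as the share of a gene's total sum of squares over the 6 arrays that lies within strains. Over these 6 arrays more of the degrees of freedom lie within strains than between them. Noise alone would therefore put the larger part of the sum of squares within strains on average, and a large share is no sign of an effect by itself. The median share was 54.7% over all genes, 81.4% over the acinar genes, 65.2% over the adipocyte genes and 58.5% over the intestinal genes. It was 49.3% over the islet genes, 48.2% over the striated muscle genes and 23.8% over the smooth muscle genes. The lists of immediate early genes and clock genes had 78.9% and 77.9%, so a high share was not particular to the acinar genes. The acinar list was chosen with results known and could pass the filter through replicate 2 alone, which favours a high share. The SD over members was 26.7 percentage points for all genes, 19.1 for acinar, 25.1 for adipocyte and 30.2 for intestinal genes. The adipocyte and intestinal shares differed from that of all genes by less than these SDs, so they do not set those tissues apart. On the deposited scale the share was 36.2% over all genes, 84.2% over the acinar genes, 38.9% over the adipocyte genes and 47.2% over the smooth muscle genes. The smooth muscle share was thus below that of all genes after quantile normalization and above it on the deposited scale, while the acinar share was above it on both.

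The 15 genes with the most consistent excess in replicate 2, ranked by the smallest of their 3 differences, were 13 acinar genes, 2210010C04Rik and Cp. Cp was at 5.88 and 7.28, 5.40 and 6.79, and 5.65 and 7.40, differences of 1.40, 1.39 and 1.75. The 15 genes most consistently lower had differences between -0.62 and -1.39, and 14 of them had a mean level under 7, near the floor. Crybb2, a lens crystallin gene, led them at 6.69 and 5.30, 6.48 and 5.09, and 6.25 and 5.15. The acinar list held 0 of these 15 genes, and members of the other lists were not counted among them.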

How the data were processed

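The authors deposited 1 linear signal intensity per probe set and array for 6 arrays, with RNA from Trizol extraction, per the labels' protocols; the sources used here do not give the algorithm or the scaling. All 15 array pairs differed in nearly all values (35 to 88 equal values). Of 22626 probe sets that are not controls, 20380 carried 1 gene symbol, 691 carried several and 1555 were not listed; 64 control probe sets were left out. Intensities became log2(signal + 32), quantile normalized. Where a gene had several probe sets, the brightest was used, and genes in the lowest 30% of mean levels (below 5.74) were left out.

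Replicate 2 was compared with replicate 1 in limma 3.58.1 (R 4.3.3), with strain and replicate number as terms, the intensity trend, a two-sided test and Benjamini-Hochberg adjustment over 9395 genes (2 residual degrees of freedom, 8.58 after moderation). Within a strain 1 array stood against 1, so no test was made there. The replicate numbers were taken as pairing the arrays, since all 3 correlations between pair differences exceeded 0.1 (0.118, 0.272, 0.189); without the 34 acinar genes they were 0.0208, 0.0520 and 0.0903, so the pairing rests on the list that 7 of the 8 calls belong to. The fit was tested on simulated data.

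The members and lists were chosen with earlier results of these data known. Named genes were the list members with the largest difference in any pair (up to 10 for the pancreatic, adipocyte, muscle and intestinal lists, up to 4 for others), the 15 most consistent in each direction, the 12 largest per pair and direction, and the calls. Other genes named were chosen after their values were seen. Alternatives were other pseudocounts, scalings, filters, probe set rules, eBayes settings, fits without each pair or without the strain term and, chosen after seeing the data, fits without the acinar list. The 6 arrays limit the precision.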

Additional observations from a re-analysis of the deposited data

Results flagged for a closer look

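Genes of plasma and B cells went opposite ways in the Beige and the Satin pair. Their median difference, replicate 2 minus replicate 1, was -0.15 in Beige, where 2 of 13 genes past the filter were higher in replicate 2, and 0.35 in Satin, where 11 of 13 were. The difference between the strains was not tested, since each pair holds 1 array against 1. In BL6 the median was 0.44. Ighm, an immunoglobulin heavy chain gene, was at 7.0 and 9.81 on BL6 arrays 1 and 2, 10.15 and 9.41 on the Beige pair and 8.09 and 10.24 on the Satin pair. Ms4a1, the gene of the B cell antigen CD20, was at 7.45 on Satin array 2 and 5.10 to 6.31 on the other 5.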

How the results depend on the processing

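The paired fit called 8 genes; it called 5 with a pseudocount of 1, 49 on the deposited scale (2 of them lower), 16 after median centring, 19 after scaling to the hybridization controls, 3 with the mean of all probe sets, 0 without the intensity trend, 0 with robust estimation and 1 (2210010C04Rik) without the acinar list, an alternative chosen after seeing the data. Leaving out 1 pair gave 20 to 27 calls (20 without the BL6 pair, 24 without Beige, 27 without Satin). No replicate block, that is the arrays unpaired, gave 7. Of the 14 other settings with the acinar list, Cpa1, Cpb1 and Prss2 were called in 12 and Rnase1 in 6. Genes past 2-fold numbered 583 in BL6, 450 in Beige and 252 in Satin; with a pseudocount of 1 these were 1698, 1446 and 1020, with 100 they were 120, 27 and 56, and with the filter at 50% 349, 185 and 120. In Satin the deposited scale gave 409 and the hybridization controls 396. These scalings moved the median difference of all genes to -0.32 in BL6 (hybridization controls) and up to 0.23 in Beige (median centring). Averaged over pairs and relative to all genes, the acinar list lay at 2.65, between 1.68 and 3.63 under every alternative run; the striated muscle list went from 0.11 to -0.084 with the filter at 50%. The adipocyte share within strains went from 65.2% to 38.9% on the deposited scale. Apart from the fewer genes or arrays in some settings, the cause was not tested. No called gene changed direction.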
